A study of Mus musculus with 8 samples.

Results

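Retinoic acid synthesis, binding, breakdown and reception were followed through 9 genes in single cells of the mouse forelimb. These were the retinal dehydrogenase genes *Aldh1a1*, *Aldh1a2* and *Aldh1a3*, the cellular retinoic acid binding protein genes *Crabp1* and *Crabp2*, the breakdown enzyme gene *Cyp26b1*, and the retinoic acid receptor genes *Rara*, *Rarb* and *Rarg*. They were chosen by name from 28001 gene identifiers and measured as unique molecular identifiers (UMIs, counts of captured RNA molecules) in all 8 libraries, over cells with at least 3000 UMIs and at most 10% of them mitochondrial.

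The study traced limb mesenchymal progenitors marked by *Hic1*, a gene for a transcriptional repressor. Mice of all groups were C57BL/6J, homozygous for the tamoxifen-inducible *Hic1* CreERT2 allele and for the Cre-activated tdTomato reporter at *Rosa26*, and dams were given 7.5 mg of tamoxifen by gavage at embryonic day 10 (E10). Sorted tdTomato+ forelimb cells made up 6 libraries, 1 for each day from E11.5 to E14.5 and, at E16.5, 1 for a proximal segment around the elbow and 1 for a distal segment of lower forearm and paw. The other 2 libraries, whole 1 and whole 2, came from E11.5 forelimbs without selection for the reporter. Litters were pooled into each library, blood and endothelial surface markers were used to gate out other cells, and only cells in which *Hic1* was active when tamoxifen acted, and their progeny, could carry the reporter.

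Retinoic acid is a small lipid signal made from vitamin A. Retinol is oxidised to retinal, and the ALDH1A enzymes oxidise retinal to retinoic acid irreversibly. CRABP proteins carry the acid in the cytoplasm, CYP26 enzymes degrade it, and the RAR receptors, paired with RXR partners, bind DNA and switch target genes when the acid is bound. In the limb bud, the proximal end lies nearest the trunk, a source of retinoic acid made by *Aldh1a2*, and *Cyp26b1* is known for keeping the distal bud low in the signal. *Rarb* is a classic direct target as well as a receptor.

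In the GRCm38 assembly the dehydrogenase genes lie at chr19:20492715-20643465 (*Aldh1a1*, + strand), chr9:71215789-71296243 (*Aldh1a2*, + strand) and chr7:66390890-66427517 (*Aldh1a3*, − strand). The binding protein genes lie at chr9:54764748-54773110 (*Crabp1*, + strand) and chr3:87948666-87953376 (*Crabp2*, + strand), and *Cyp26b1* at chr6:84571414-84593908 (− strand). The receptor genes lie at chr11:98927818-98974942 (*Rara*, + strand), chr14:16430839-16819156 (*Rarb*, − strand) and chr15:102234938-102257517 (*Rarg*, − strand).

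RefSeq promoter windows (GRCm38.p6, the 250 bases before each start) were found for 7 of the 9 genes, in 12 windows. *Aldh1a3* and *Crabp2* had no entry. Retinoic acid receptors bind a core of 6 letters, AGGTCA in its textbook form, usually as a direct repeat. The letters searched were AGGTCA with the variant AGTTCA, and the form GGGTCA with the variant GGTTCA. On either strand at least 1 core was present in 38.6% of 32851 windows, and in 4 of the 12 member windows, those of *Aldh1a1*, *Rara*, *Rarb* and *Rarg*. A direct repeat with 5 bases between the cores, the arrangement best known for these receptors, was present in 29 windows, 0.0883% of all. Among the member windows it was found in that of *Rarb*, from 53 to 37 bases before the start. Repeats with 1 or 2 bases between, in 0.164% and 0.174% of all windows, were in 0 of the 12. The sequences below are written 5′ to 3′ along the gene with each matched core, on either strand, in capitals, and in the *Rarb* site the repeat with its 5 middle bases is in capitals. They are shown because *Rarb* had the steepest proximal-distal difference, *Rara* held the most cores without such a repeat, and *Aldh1a2* differed most between sorted and whole-limb cells.

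Rarb (chr14:16575507-16575536, − strand, 60 to 31 bases before the start, in annotated exon): cgggaagGGTTCACCGAAAGTTCActcgca
Rara (chr11:98939461-98939710, + strand, intron of longer transcripts): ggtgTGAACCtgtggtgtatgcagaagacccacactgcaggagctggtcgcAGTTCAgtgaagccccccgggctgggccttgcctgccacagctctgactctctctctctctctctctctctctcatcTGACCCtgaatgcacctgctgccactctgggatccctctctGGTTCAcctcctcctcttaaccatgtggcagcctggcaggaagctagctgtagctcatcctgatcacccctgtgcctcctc
Aldh1a2 (chr9:71215539-71215788, + strand, upstream of the annotated gene): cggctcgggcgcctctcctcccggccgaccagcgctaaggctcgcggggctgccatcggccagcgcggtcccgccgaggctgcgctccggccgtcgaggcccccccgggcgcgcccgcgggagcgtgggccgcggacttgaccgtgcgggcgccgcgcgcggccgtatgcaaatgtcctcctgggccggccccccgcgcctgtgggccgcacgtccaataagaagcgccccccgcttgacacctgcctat

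The *Aldh1a2* window held no core. A match describes letters in the window, not a bound site.

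Of 57469 cell barcodes, 53085 passed the filters, with 3165 to 11109 cells in a library and a median of 6788 to 18473 UMIs per cell. The libraries held 32957305 to 236408650 UMIs in all, and no pair of libraries shared more than 1.04% of the barcodes of the smaller. Levels are given as CPM, UMIs of a gene scaled to the same total in every sum of cells, in which fewer cells with a transcript and less RNA per cell cannot be told apart. At E11.5 they are over mesenchymal cells, after clusters resembling muscle, epithelium, endothelium, glia or blood cells were set aside. The sorted library had *Hic1* at 23.8 CPM, whole 1 at 0.77 and whole 2 at 0.78, and reporter RNA at 456, 3.76 and 4.30 CPM in that order. The labels of the whole-limb libraries name both reporter-positive and reporter-negative cells, and reporter RNA was low in both. They are used here as whole-limb mesenchyme, as labelled.

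*Aldh1a2*, the main retinoic acid-making enzyme gene of the embryo, was far higher in sorted E11.5 cells than in the whole limb. Its level was 49.6 CPM in sorted mesenchymal cells (exact Poisson 95% interval 47.2–52.1, as for all intervals below, which cover counting error only), 4.81 CPM in whole 1 (4.20–5.48) and 5.96 CPM in whole 2 (5.28–6.69). The sorted library lay above both whole-limb libraries, whose own intervals overlapped. The summed UMIs of these 3 libraries were compared in a quasi-likelihood fit over 15043 genes (edgeR, Benjamini-Hochberg adjustment). The log2 fold change was 3.02 ± 0.13 (SE; n = 1 sorted and 2 whole-limb libraries), or 8.11-fold. The study had already named *Aldh1a2*, from these same libraries, among genes that set tdTomato+ cells apart at E11.5. The value is thus no separate support. The spread in this fit came from the 2 whole-limb libraries, so that the sorted library was taken to vary like them. The p-values below measure spread between libraries that may be technical, and sort cannot be told apart from library here. In the sorted library 74.2% of barcodes passed the filters, against 97.7% in whole 1 and 98.6% in whole 2. The fit was permissive: 53.3% of all genes tested passed, against 7 of the 8 members tested, so a call alone sets a member little apart. *Aldh1a1* had 1 to 3 UMIs in each E11.5 library and was too low to test.

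*Aldh1a3*, a second enzyme of the same step, was at 3.51 CPM in sorted cells, 0.79 in whole 1 and 0.57 in whole 2. The log2 fold change was 2.18 ± 0.28 (4.53-fold, adjusted p = 8.1e-14, edgeR). Both dehydrogenase genes that could be tested were thus higher in sorted cells, where 26.8% of genes tested rose.

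*Crabp1* and *Crabp2*, the carriers, were slightly lower in sorted cells. *Crabp1* stood at 127 CPM in sorted cells, 142 in whole 1 and 156 in whole 2, a log2 change of −0.42 ± 0.10 (adjusted p = 9.1e-05). *Crabp2*, the carrier known for handing retinoic acid to receptors in the nucleus, stood at 553, 613 and 679 CPM in the same order, a log2 change of −0.41 ± 0.12 (adjusted p = 0.0019). The whole-limb libraries themselves differed beyond counting error for both carriers, for *Cyp26b1* and for *Rarg*, and the sorted value lay below both in each case. *Cyp26b1* was at 53.3 CPM in sorted cells, 68.2 in whole 1 and 78.5 in whole 2, a log2 change of −0.64 ± 0.10 (1.56-fold lower, adjusted p = 2.4e-09).

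The receptors moved in different directions. *Rara*, the most widely expressed of the RAR genes, was at 67.8 CPM in sorted cells against 40.1 and 40.2 in whole 1 and whole 2 (log2 fold change 0.57 ± 0.11, adjusted p = 3.8e-07). *Rarg*, known for its expression in cartilage and its precursors, was at 76.9 against 85.9 and 93.1 CPM (log2 −0.40 ± 0.10, adjusted p = 0.00012). *Rarb* was at 5.62 against 4.77 and 5.40 CPM, with all 3 intervals overlapping (log2 −0.04 ± 0.18, adjusted p = 0.87). In all 3 members rose and 4 fell in sorted cells, where 26.8% and 26.6% of genes tested did.

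Scaling bore on the smaller of these differences. With library totals alone in place of TMM scaling, the median of all genes moved from 0.01 to 0.20 on the log2 scale and 5243 of 7611 calls were higher in sorted cells, in place of 4028 of 8023. The adjusted p then was 0.057 for *Crabp1*, 0.10 for *Crabp2* and 0.069 for *Rarg*, while *Aldh1a2*, *Aldh1a3*, *Rara* and *Cyp26b1* still passed in the same direction. In the sorted mesenchymal cells the 9 chondrocyte markers summed to 653 CPM (429 and 456 in whole 1 and whole 2), the 8 myogenic markers to 3.58 (7.84 and 8.25; *Myf5*, *Pax7* and *Myog* at 0 in sorted cells), and the 7 erythroid markers to 0.16 (242 and 205). Their part in these differences was not tested.

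**Figure D1:**
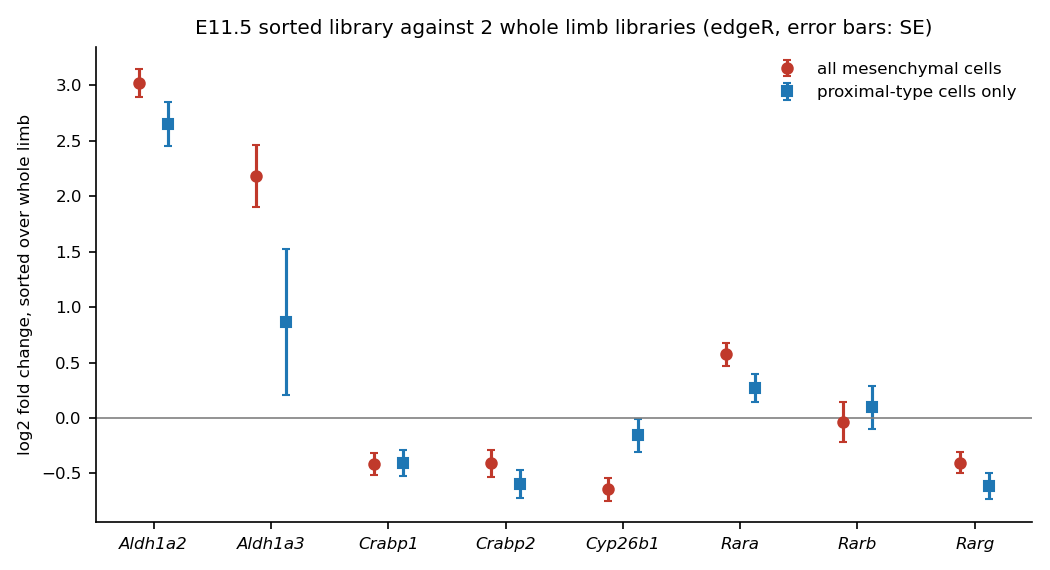
Log2 fold change of each tested member between the sorted E11.5 library and the 2 whole-limb libraries (edgeR, n = 1 against 2; error bars are SE). Circles are all mesenchymal cells and squares the cells of proximal type alone. *Aldh1a2* stays near 3 in both, while *Aldh1a3*, *Cyp26b1* and *Rara* move towards 0 when proximal cells are compared. *Aldh1a3* there rests on 8 to 11 UMIs in a library.

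The sorted and whole-limb cells also differed in position along the limb, so position was read from each cell. Cells thinned to 3000 UMIs were called proximal when they had a *Meis1* or *Meis2* UMI and no *Hoxa13* or *Hoxd13* UMI, and distal in the reverse case. Proximal cells made up 15.9% of the sorted mesenchymal cells and 22.5% and 24.4% of those of whole 1 and whole 2, and distal cells 1.20%, 21.4% and 19.1%. No UMI of these position genes was found in 2611 of 3156 sorted, 2803 of 5105 whole 1 and 2935 of 5333 whole 2 cells. In those unplaced cells *Aldh1a2* was at 53.7, 4.54 and 6.81 CPM in the same order. Over the 501, 1147 and 1302 proximal cells alone, *Aldh1a2* kept a log2 fold change of 2.65 (35.0 CPM in sorted cells, 6.57 and 4.26 in whole 1 and whole 2). There *Aldh1a3* had a log2 change of 0.87, on 11 UMIs in sorted cells and 11 and 8 in whole 1 and whole 2. *Cyp26b1* had a log2 change of −0.16 and *Rara* of 0.27. These 3 calls were not kept among proximal cells. Whether position or the smaller number of UMIs lay behind this was not tested. *Crabp1*, *Crabp2* and *Rarg* stayed lower in the sorted proximal cells, at 99.7, 566 and 67.3 CPM. In the proximal cells of whole 1 they were at 118, 768 and 94.5 CPM, and in those of whole 2 at 136, 877 and 103 CPM.

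Within the whole limb, the receptor *Rarb* was higher in the proximal cells. It was at 14.02 CPM (128 UMIs) in the proximal and 0.51 CPM (6 UMIs) in the distal cells of whole 1, and at 15.94 CPM (161 UMIs) and 0.47 CPM (5 UMIs) in those of whole 2. The proximal value exceeded the distal in both libraries, with intervals far apart. Proximal and distal sums were compared by an edgeR fit with library as a block, from which the position genes were left out. With 6 and 5 distal UMIs *Rarb* passed the filter on low counts through the proximal sums alone. Its value is thus given from the fit with no filter. There the log2 fold change was 4.85 ± 0.26 (SE, n = 2 libraries, adjusted p = 7.1e-77, edgeR). The other fits, that with positions set by *Hoxa13* and *Meis2* alone among them, kept the filter, so nothing is read from them for *Rarb*. The filtered fit, used for the other genes, was again permissive, with 51.6% of 12183 genes called. It called 6 of the 7 members it held, *Rarb* among them, and nothing is read from that count.

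*Crabp2* was higher in proximal cells, at 768 and 877 CPM against 366 and 393 in distal cells of whole 1 and whole 2 (2.11-fold, log2 1.07 ± 0.03, adjusted p = 3.8e-302). *Cyp26b1* ran the other way, at 38.3 and 42.3 CPM in proximal against 76.6 and 89.2 in distal cells (2.12-fold lower, log2 −1.08 ± 0.07, adjusted p = 2.9e-59). *Rarg* (log2 0.42 ± 0.05) and *Crabp1* (0.34 ± 0.05) were modestly higher in proximal cells. *Rara* differed by 0.23 ± 0.08 (adjusted p = 0.0069), and lost its call without the library block (adjusted p = 0.068).

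*Aldh1a2* did not pass between proximal and distal cells of the whole limb. It was at 6.57 CPM in proximal and 4.05 in distal cells of whole 1 and at 4.26 and 5.52 in those of whole 2, so that the libraries ran in opposite directions (log2 0.13 ± 0.21, adjusted p = 0.61, edgeR). *Aldh1a1* and *Aldh1a3* were too low to test. *Meis1* and *Meis2*, used to pick the proximal cells, are themselves known to respond to retinoic acid in the limb.

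**Figure D2:**
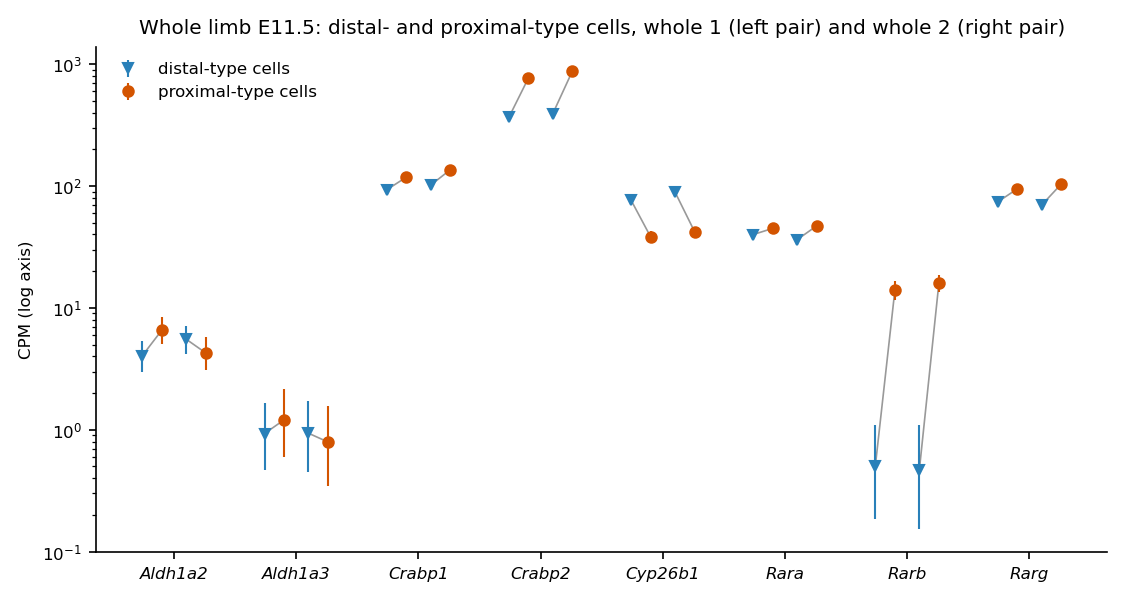
CPM (log axis) of 8 members in distal-type (triangles) and proximal-type (circles) cells of whole 1 (left pair) and whole 2 (right pair), with exact Poisson 95% intervals. *Rarb* rises from about 0.5 to 14.02 and 15.94 CPM and *Crabp2* more than doubles, whereas *Cyp26b1* falls, in both libraries.

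Other genes of the pathway, chosen by name, were read in the same fits. Of 24 further pathway genes 19 could be tested in sorted against whole-limb cells, and 6 rose and 3 fell, where 26.8% and 26.6% of all genes did, with a median log2 change of 0.14 against 0.01 for all genes. *Rdh5*, a retinol dehydrogenase gene, rose by 1.20 on the log2 scale. *Fabp5*, a fatty acid binding protein that can also carry retinoic acid, decreased by 1.08. Of 11 textbook targets of retinoic acid 9 could be tested, and 2 rose and 4 fell, beside the same shares of all genes. *Hoxb5*, a Hox gene, was lower (log2 −2.71). *Tgm2*, a transglutaminase gene, was called higher on 14 UMIs in the sorted library against 3 and 5 in whole 1 and whole 2. *Cdx1*, a caudal-type homeobox gene, was called lower on 1 UMI against 19 and 18. Each passed the filter on low counts through the group where it was high, so nothing is read from the counts of targets that hold them.

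Between proximal and distal cells of the whole limb 8 of 19 pathway genes were higher in proximal cells and 4 lower, where 25.3% and 26.2% of all genes were. *Rdh10*, which makes the retinal that ALDH1A enzymes use, was higher (log2 1.01), as was the retinol uptake receptor gene *Stra6* (1.33). The RXR gene *Rxrg* was at 1.86 and 3.37 CPM in proximal and 0.59 and 0.65 CPM in distal cells of whole 1 and whole 2. Of 5 targets tested 4 were higher, beside the same 25.3% of all genes, among them the nuclear receptor gene *Nr2f1* (3.71). *Hoxb5* was at 15.1 and 18.02 CPM in proximal and 0.084 and 0.37 CPM in distal cells. *Rxrg* and *Hoxb5* passed the filter on low counts through the proximal sums alone, so nothing is read from the counts of pathway genes and targets that hold them. *Stra6* and *Rdh10* thus were higher in proximal cells, where *Aldh1a2*, which acts on the retinal made, gave no call.

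Across the sorted stages the dehydrogenase genes peaked at different times. Levels are given over cells outside epithelial-like clusters, in 1 library per stage and with no test, and stage cannot be told apart from library, reagent kit (v2 to E13.5, v3 after) and, at E16.5, segment. From E11.5 to E14.5 *Aldh1a2* measured 49.3, 55.1, 20.2 and 16.8 CPM by day, and at E16.5 13.1 CPM proximally and 9.69 distally. *Aldh1a3* measured 3.49, 28.4, 33.6 and 13.7 CPM by day, then 27.5 CPM proximally and 16.01 distally. *Aldh1a1*, known as the enzyme of the dorsal eye and of several adult tissues, was at 0.03, 0.05, 0.18 and 0.30 CPM (1, 2, 8 and 40 UMIs) until E14.5 and reached 5.53 CPM proximally and 1.98 distally at E16.5. Thus *Aldh1a2* was highest at E11.5 and E12.5, *Aldh1a3* at E12.5, E13.5 and in the proximal but not the distal segment of E16.5, and *Aldh1a1* at E16.5.

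Between E11.5 and E12.5 *Aldh1a3* rose 8.12-fold, the one of 8 members compared that was past 2-fold, where 7.74% of 12872 genes were past it, 5.1% up and 2.63% down. From E12.5 to E13.5 *Aldh1a2* was the one of 8 members compared that was past 2-fold, falling to 0.37 of its level, where 7.6% of genes were past it, 5.11% up and 2.49% down. *Aldh1a1*, too low to be compared before E16.5, had 2 and 8 UMIs at these stages.

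The carriers moved in opposite directions. *Crabp1* climbed by day from 126 CPM through 210 and 317 to 766 CPM at E14.5, with 440 CPM in the proximal and 634 CPM in the distal segment. *Crabp2* was at 552, 560, 402 and 290 CPM from E11.5 to E14.5 and at 112 and 154 CPM in the proximal and distal segments, and its E11.5 and E12.5 intervals overlapped. The highest of the sorted levels was thus at E14.5 for *Crabp1* and at E11.5 or E12.5 for *Crabp2*. From E13.5 to E14.5 *Crabp1* rose 2.42-fold and *Aldh1a3* fell to 0.41 of its level, where 15.1% of 13429 genes were past 2-fold, 6.64% up and 8.5% down; the reagent kit changed at this step.

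*Cyp26b1* fell by day from 53.2 CPM through 28.9 and 23.0 to 14.7 CPM, and measured 16.9 CPM in the proximal and 53.6 CPM in the distal segment. Its distal E16.5 level overlapped that of E11.5 in its interval. *Rara* was at 67.7, 58.4, 42.7 and 41.5 CPM from E11.5 to E14.5 and at 35.96 and 52.6 in the segments. *Rarg* was at 76.6, 68.8, 80.0 and 53.7 CPM and at 48.2 and 64.9 in the segments. Of the RAR genes *Rarb* alone did not have its highest sorted level by E13.5: it was at 5.59, 7.12, 9.89 and 12.4 CPM, and then at 5.97 proximally and 10.5 distally.

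**Figure D3:**
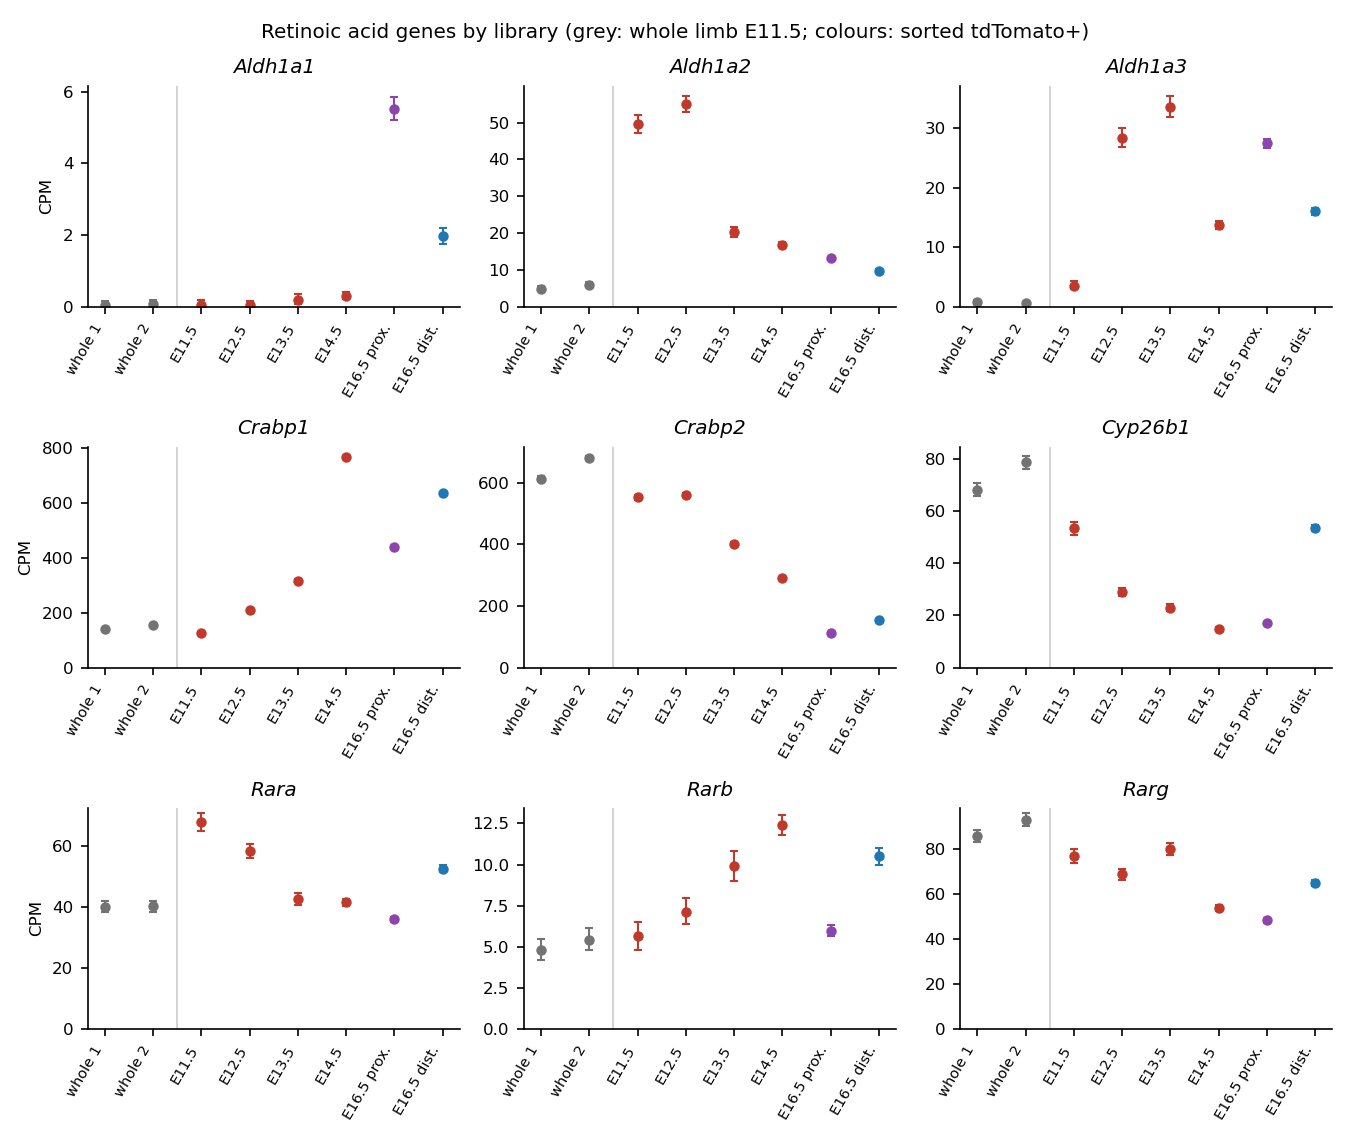
CPM of the 9 members in each library (E11.5 libraries over mesenchymal cells, later ones over cells outside epithelial-like clusters; bars are exact Poisson 95% intervals; each axis starts at 0). Whole-limb libraries are left of the line; *Aldh1a2* and *Crabp2* fall after E12.5 in sorted cells, *Crabp1* rises to 766 CPM at E14.5, and *Aldh1a1* appears at E16.5.

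From E11.5 to the proximal segment at E16.5, *Aldh1a3* and *Crabp1* were higher past 2-fold, where 16.7% of 13497 genes were and 45.8% were past it in either direction. *Aldh1a1* was higher too, but it entered the comparison through its E16.5 level alone. Nothing is read from a count of members that holds it. *Aldh1a2*, *Crabp2* and *Cyp26b1* were lower past 2-fold, where 29.1% of genes were. The log2 ratios were −1.91 for *Aldh1a2* (−2.004 to −1.82), −2.30 for *Crabp2*, −1.65 for *Cyp26b1*, 2.98 for *Aldh1a3* and 1.80 for *Crabp1*, beside a median of −0.43 for all genes. The ratio for *Aldh1a1* was 174-fold with an interval of 31.2 to 6886, since it rested on 1 UMI at E11.5. With cells thinned to 3000 UMIs the log2 ratio was 2.32 for *Aldh1a3*. *Aldh1a1* was then in 0 cells at E11.5, so its thinned log2 ratio, 3.91, was taken over a floor of 3 UMIs. It cannot be set beside the unthinned 7.44, which rested on the 1 UMI. With TMM scaling the median was −0.02 and again 3 members up and 3 down stood past 2-fold, counts that hold *Aldh1a1*.

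From E14.5 to the proximal segment 2 members were up past 2-fold and 2 down, where 7.31% and 9.48% of 13359 genes were, 16.8% in all. Those up were *Aldh1a1* (18.3-fold) and *Aldh1a3* (2.00-fold, at the threshold), and those down *Crabp2* (to 0.39) and *Rarb* (to 0.48 of its level). *Aldh1a1*, with 40 UMIs (0.30 CPM) at E14.5, entered this comparison through its E16.5 level alone. Nothing is read from the count of members up. The 9 chondrocyte markers summed to 823 CPM at E14.5, 4157 CPM in the proximal and 1007 CPM in the distal segment, and their part in these ratios was not tested.

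The segments of E16.5 differed most in *Cyp26b1*. At 53.6 CPM distally (52.5–54.8) against 16.9 proximally (16.3–17.5), it was 3.17-fold higher in the distal library, the one member up past 2-fold, where 6.43% of 13245 genes were and 10.5% were past it in either direction. *Aldh1a1* was the one member down past 2-fold (log2 −1.48, −1.67 to −1.30), where 4.07% of genes were. *Rarb* (log2 0.81), *Rara* (0.55), *Crabp1* (0.53), *Crabp2* (0.46) and *Rarg* (0.43) were higher distally and *Aldh1a3* (−0.78) and *Aldh1a2* (−0.44) lower, beside a median of 0.11 for all genes. Each segment was 1 library, so these ratios have no replicate check and segment cannot be told apart from library.

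Cells were clustered without the members and the other listed genes, and clusters were named from marker lists. At E11.5 99.3% of the sorted cells and 83.5% and 82.8% of the whole-limb cells fell in clusters that the markers did not name, and these are called by their leading genes. A member's level in a cluster is a description of the cells of 1 library, with no test.

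*Aldh1a2* was uneven among the sorted E11.5 cells. It stood at 114 CPM (106–122) in a cluster of 809 cells led by *Ntrk2*, *Pamr1* and *Aldh1a2* itself, and at 32.6 CPM in the rest of the library. The other large sorted clusters had 40.0 and 24.6 CPM, the second of these within the range of the whole-limb chondrocyte-like cells (19.8 and 25.6 CPM in whole 1 and whole 2). Those were the highest whole-limb clusters, and the cluster led by *Irx3* and *Irx5* had 1.11 and 1.14 CPM. At E12.5 an early progenitor-like cluster led by *Egr4* had 101 CPM and one led by *Pcp4* had 96.8 CPM, and at E14.5 a cluster of 848 cells led by *Msx1* and *Hoxd13*, genes of the distal limb, had 66.3 CPM against 12.5 in the rest.

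At E16.5 *Aldh1a2* was highest, among named classes, in pericyte-like cells, the cells of the vessel wall, with 43.6 CPM proximally (39.5–48.0; 9.88 in the rest) and 31.0 distally (8.84 in the rest). Finer clusters, an alternative chosen after these values were seen, split the proximal class. The 159 cells that kept the pericyte name had *Rgs5*, a pericyte gene, at 1040 CPM and *Aldh1a2* at 7.15 CPM, whereas an unnamed cluster of 381 cells led by *Scg2*, 261 of them from the pericyte-like class, had *Rgs5* at 61.8 CPM and *Aldh1a2* at 70.8 CPM (65.2–76.8). The proximal *Aldh1a2* signal thus lay beside rather than in the *Rgs5*-high cells. In the distal segment 66 of the 200 pericyte-like cells kept the name, with *Aldh1a2* at 27.7 CPM, and 134 fell in an unnamed cluster with *Rgs5* at 23.3 CPM and *Aldh1a2* at 31.6 CPM. There a finer perichondrial-like cluster of 432 cells had 40.7 CPM, above the pericyte-like one, and another of 157 cells had 3.15 CPM. Unnamed clusters led by *Entpd2* (81 cells) and by *Crym* and *Calb2* (596 cells) had 39.1 and 37.3 CPM.

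At E13.5 *Aldh1a3* was at 94.1 CPM in fibrogenic progenitor-like cells (15.4 in the rest), a class named from markers such as *Osr1* and *Rspo3*, and within it a cluster of 765 cells led by *Stmn2* had 189 CPM. At E12.5 a cluster of 516 early progenitor-like cells led by *Crtac1* had 174 CPM (13.1 in the rest). At E16.5 it was at 71.9 CPM proximally (13.7 in the rest) and 54.9 distally (14.8 in the rest) in a cluster led by muscle fibre genes such as *Acta1* and *Tnnc2* and by *Alx1*. The 14 muscle fibre genes summed to 329 CPM in this cluster proximally and 108 distally, against 117 and 29.9 over the libraries, and their part in the *Aldh1a3* level was not tested. *Aldh1a1* was highest in proximal fibroblast-like cells, at 11.9 CPM (10.9–13.1; 3.52 in the rest).

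*Crabp1* at E14.5 and E16.5, and *Cyp26b1* at E16.5, were high in dermal fibroblast-like cells. In dermal fibroblast-like cells, named from markers such as *Col7a1* and *Rspo1*, *Crabp1* was at 2022 CPM at E14.5, 1556 in the proximal and 1956 in the distal segment, 3.81, 5.70 and 4.45 times the rest of each library. *Cyp26b1* in the same class was at 4.74 CPM at E14.5, below the rest (16.4), and at 53.4 proximally and 147 distally, 4.70 and 3.69 times the rest. The named class next highest in *Cyp26b1* proximally was chondrocyte-like, at 40.0 CPM. The pair was thus above the rest in dermal cells at E16.5, and *Cyp26b1* below it at E14.5. Among them a small cluster led by *Gal*, *Sox2* and *Sox18*, of 92 proximal and 73 distal cells, had *Cyp26b1* at 183 and 276 CPM, *Crabp1* at 990 and 2700 CPM and *Rara* at 91.7 and 118 CPM. *Aldh1a2* was low in this class, at 2.88, 1.95 and 0.87 CPM.

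*Rarg* was high in the following clusters with cartilage genes. It was at 174 CPM at E12.5 and 157 at E13.5 in a cluster led by *Wwp2*, *Sox6* and *Matn4*. The markers named it perichondrial-like, but its 9 chondrocyte markers summed to 2800 and 3063 CPM, above all other clusters of those libraries. It is therefore called here by its leading genes. At E14.5 these markers summed to 3473 CPM in a cluster of 1279 cells led by *Six2* and *Matn4*. That cluster kept the name tenocyte-like, and its *Rarg* level is not reported here. *Rarg* was at 105 in chondrocyte-like cells of the proximal segment (41.5 in the rest), and at 190 in a distal cluster of 427 cells led by *Sema3e* and *Cytl1*, where *Cyp26b1* also was at 160 CPM. In whole-limb chondrocyte-like cells *Rarg* was at 118 and 136 CPM and *Cyp26b1* at 81.2 and 94.1 CPM. *Cyp26b1* was above the rest of the library in the *Wwp2*-led cluster at E12.5 (99.3 against 27.3 CPM) and E13.5 (45.7 against 17.0). Over 33 class-by-library sums, of named classes alone, the levels of *Cyp26b1* and *Rarg* had a Pearson r of 0.61 on the log2 scale. With *Aldh1a2* and *Aldh1a3* (0.61) and *Crabp2* and *Rara* (0.61) they were the highest of 36 member pairs. These values describe sums that share libraries.

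*Rarb* was low in chondrocyte-like cells, with 0.31 CPM in whole 1, 0.57 CPM in whole 2 and 0.40 CPM proximally at E16.5. Its highest level was 40.6 CPM in the *Msx1*- and *Hoxd13*-led cluster of E14.5 (9.95 in the rest), where *Aldh1a2* also was high. In the whole limb it was at 18.2 and 17.3 CPM in the *Irx3*-led cluster and at 17.2 and 21.9 in one led by *Pax1*, where *Crabp2* was at 934 and 1050 CPM and at 882 and 980 CPM. Among tenocyte-like cells it was at 12.5 CPM proximally (4.70 in the rest) and 15.4 distally (9.99 in the rest).

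*Crabp2* at E16.5 was at 184 CPM in proximal perichondrial-like and 21.5 in chondrocyte-like cells. *Rara* varied little between named classes, at 22.3 to 42.5 CPM across the proximal non-epithelial classes and 46.3 to 61.5 across the distal ones. In proximal epithelial-like cells, sorted with the others although not mesenchymal, *Rara* was at 10.9, *Crabp1* at 27.5 and *Aldh1a2* at 1.00 CPM.

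**Figure D4:**
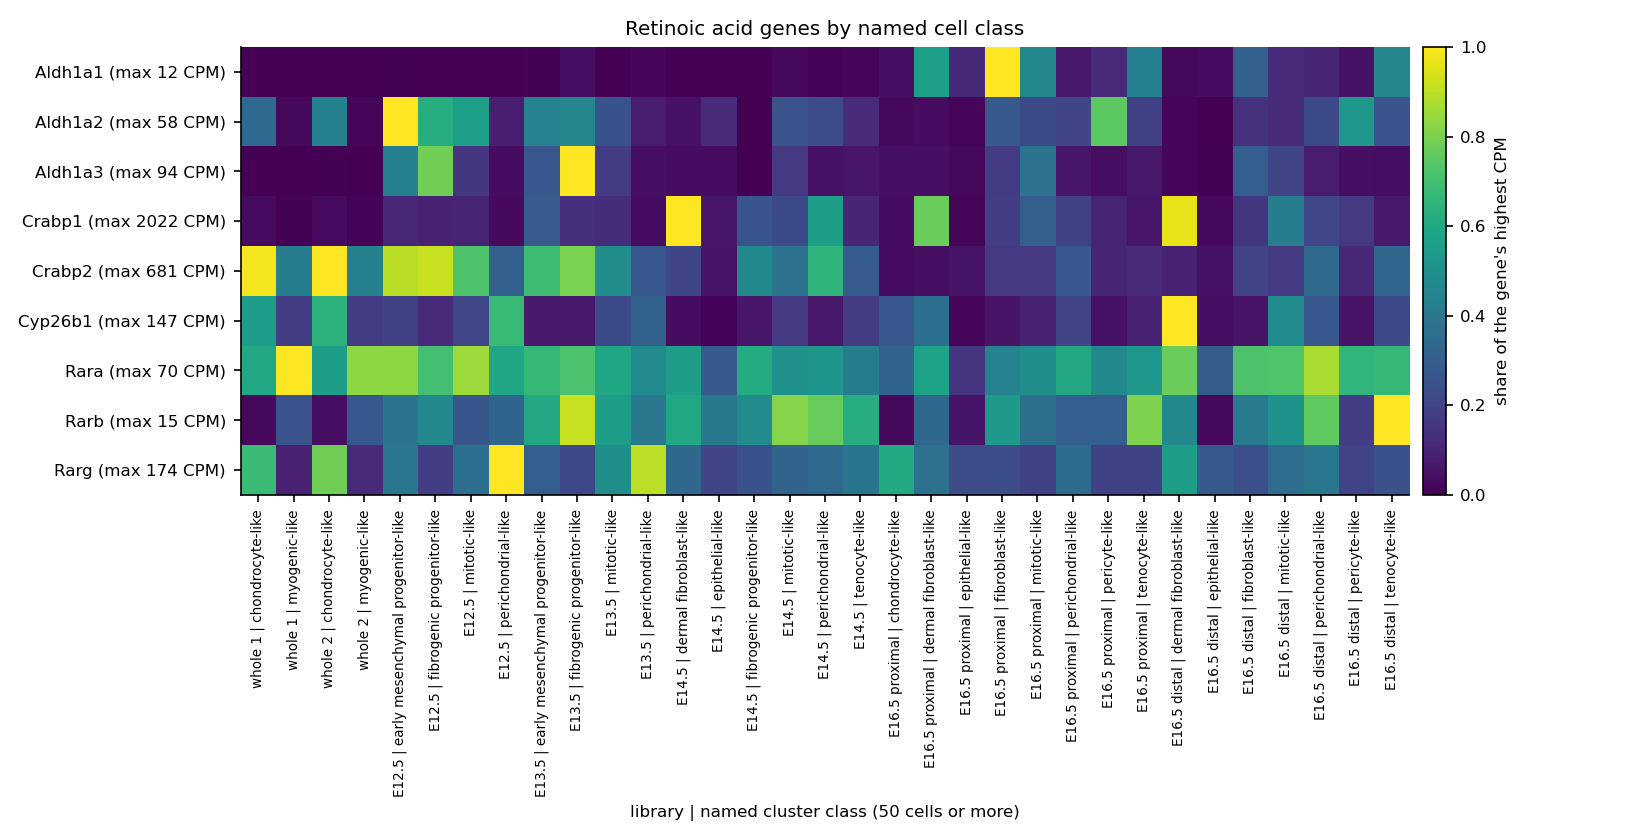
Level of each member (row) in each named class of at least 50 cells in a library (column). It is drawn as a share of the member's highest CPM among these classes, which is given beside its name. *Crabp1* is brightest in dermal fibroblast-like, *Rarg* in the *Wwp2*-led cells of E12.5 and E13.5, drawn as perichondrial-like, and *Aldh1a3* in fibrogenic progenitor-like cells; clusters the markers did not name are not drawn.

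Co-detection was read cell by cell after thinning every cell to 3000 UMIs, in mesenchymal cells of each library. *Aldh1a2* was found in 15.4% of the 241 sorted E11.5 cells with a *Hic1* UMI (exact binomial 95% interval 11.05–20.5) and in 9.81% of those without (8.76–10.9). At E12.5 the shares were 15.1% and 9.11%, and in the distal segment 3.86% and 1.98%. In those 3 libraries the intervals were apart, and in all 8 the share was higher with *Hic1* (7 of 8 with the highest doublet scores left out). With those cells left out the sorted E11.5 shares were 14.8% (10.5–20.04) and 9.99% (8.90–11.2), with overlapping intervals. In the whole limb the shares with *Hic1* rested on 1 of 11 and 2 of 17 cells.

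*Rarb* was found more often in cells with *Aldh1a2* in 5 of 8 libraries. The shares were 6.99% against 1.76% at E12.5, 8.44% against 2.29% at E13.5 and 9.69% against 3.33% at E14.5, with intervals apart. In whole 1, whole 2 and the proximal segment the share was not higher. Not thinned, it was higher in 7 of 8.

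*Cyp26b1*, in contrast, was not found more often in cells with *Aldh1a2* beyond counting error. At E11.5 it was in 16.4% with (12.5–20.9) and 15.0% without (13.7–16.3) of the sorted cells, and the intervals overlapped in all 8 libraries. Not thinned, it was found less often with *Aldh1a2* at E16.5, in 10.997% with and 17.5% without proximally and in 26.2% and 33.0% distally, with intervals apart in those 2 libraries. *Crabp2* was found in 66.4% of E13.5 cells with *Crabp1* and in 53.9% of those without, and was higher with *Crabp1* in 7 of 8 libraries. In the distal segment it was found in 28.8% with and 31.9% without, but not thinned in 65.9% with and 60.9% without, with intervals apart each time.

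As background for these shares, thinned epithelial-like cells of the proximal segment had *Aldh1a2* in 0.53%, *Rarb* in 0.11%, *Cyp26b1* in 0.53% and *Crabp2* in 7.53% of 943 cells. These cells had a median of 37411 UMIs before thinning, against 18473 over the library. The other proximal cells had *Aldh1a2* in 3.44% and *Rarb* in 1.66%.

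**Figure D5:**
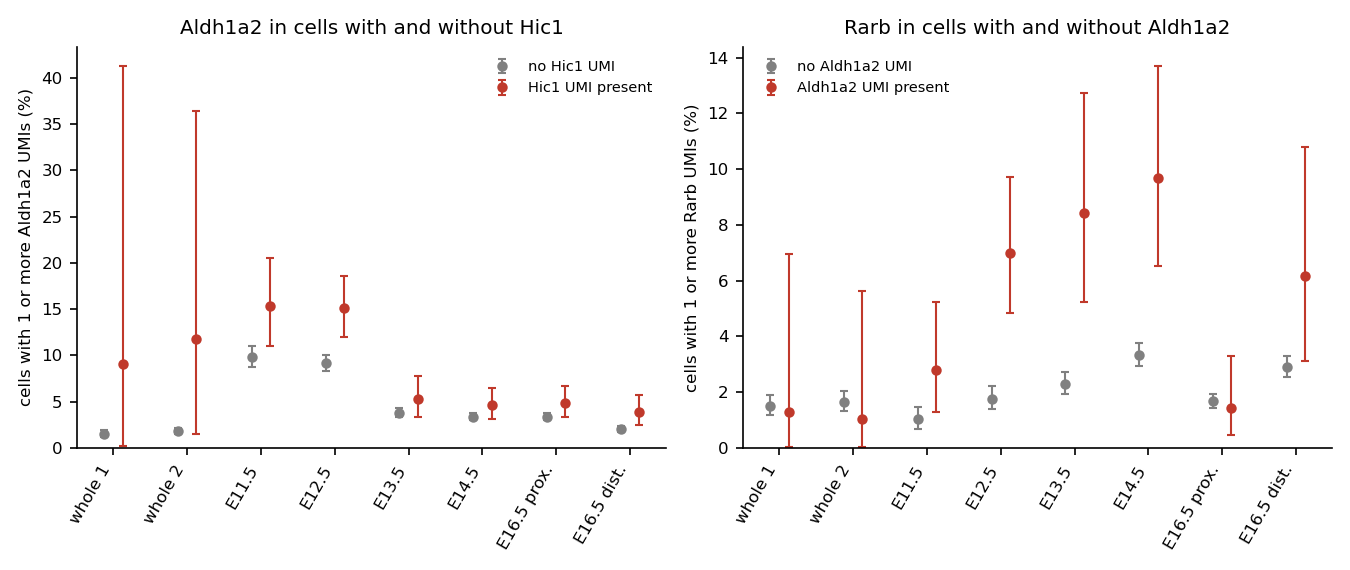
Share of thinned cells with *Aldh1a2* among cells with and without a *Hic1* UMI (left) and with *Rarb* among cells with and without an *Aldh1a2* UMI (right), by library, with exact binomial 95% intervals. On the left the share is higher with *Hic1* in all 8 libraries; on the right it is higher with *Aldh1a2*, with intervals apart, at E12.5, E13.5 and E14.5, and the intervals overlap in the other 5 libraries.

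The genes whose level over the 33 sums was most like each member's, by Pearson r of log2(CPM + 1), were *Dram1* for *Aldh1a1* (0.81), *Spry4* for *Aldh1a2* (0.81) and *Triobp* for *Aldh1a3* (0.81). For the carriers they were *Rab30* with *Crabp1* (0.89) and *Kif5c* with *Crabp2* (0.93), and *Pi4k2b* for *Cyp26b1* (0.84). For the receptors they were *Mex3a* with *Rara* (0.89), *Sncaip* with *Rarb* (0.83) and *Mbnl2* with *Rarg* (0.80). The 33 sums are of named classes alone, so they hold no sorted E11.5 cells and no cluster that the markers did not name. The highest levels in them were 58.1 CPM for *Aldh1a2* and 15.4 CPM for *Rarb*, below those of some unnamed clusters above. Sums of one library share its depth and kit, and likeness of pattern is given as a description.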

How the data were processed

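Single-cell 10x Chromium 3′ libraries of mouse forelimb cells were analysed from the deposited UMI counts, which the authors made with Cell Ranger on a modified mm10 reference (per the file headers, version 3.0.2 for 5 libraries and 6.0.1 for the distal segment, with no version in the whole-limb headers; the study names another version for its single-cell data as a whole) without normalisation. UMIs count molecules at transcript 3′ ends, so levels of different genes depend on capture. Cells with at least 3000 UMIs and at most 10% mitochondrial UMIs were kept. No doublets were removed, apart from an alternative leaving out the top 5% of doublet scores. Cells were clustered with scanpy 1.11.5 and leidenalg 0.10.2 (2000 variable genes, 50 components, 25 neighbours, resolution 1). Members, listed genes, Hox, sex-linked and mitochondrial genes were left out. Naming a cluster took at least 3 raised markers of its best list. No other list could have more markers among its 10 leading genes. Clusters led by muscle fibre genes, low in UMIs with no leading marker, or mitotic with no mitotic or histone leading gene stayed unnamed. UMIs were summed per library and tested with edgeR 4.0.16 (quasi-likelihood, TMM, Benjamini-Hochberg at 0.05; R 4.3.3); DESeq2 1.42.0 and limma 3.58.1 were alternatives. With 1 library, CPM with exact Poisson 95% intervals were given and changes past 2-fold counted. Both fits had 1 residual degree of freedom, and each was tested on simulated data. Proximal and distal sums are paired because both come from the same library. Members were named in every library; other listed genes were named when called with a log2 change of at least 1. Some other listed genes and clusters that met the rule are not reported here. The members and lists were chosen with earlier results of these data known.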

Additional observations from a re-analysis of the deposited data

Results flagged for a closer look

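Both whole-limb libraries at E11.5 gave *Crabp1*, *Crabp2*, *Rarb* and *Rarg* higher in proximal than in distal cells, and *Cyp26b1* lower. In some of the later sorted libraries these ran the other way with intervals apart, and those libraries are given here. None of these differences between libraries was tested, and stage cannot be told apart from library, kit and sort. The positions were read from the same 4 genes at all stages, and in the libraries from E12.5 on the cells so called were 53 to 2128 of a kind in a library.

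*Crabp2* was higher in distal cells in all 5 later libraries: 1.13-fold at E12.5 (594 against 526 CPM), 2.02-fold at E13.5 (539 against 267), 1.68-fold at E14.5 (349 against 208), 1.92-fold in the proximal segment (159 against 82.4) and 3.34-fold in the distal segment (214 against 64.0). *Crabp1* was 1.68-fold higher in distal cells at E12.5 (309 against 184 CPM) and 1.38-fold at E13.5 (410 against 297), but higher in proximal cells from E14.5 on. *Rarb* was 2.98-fold higher in distal cells at E13.5 (26.9 against 9.03 CPM) and 1.98-fold at E14.5 (20.8 against 10.5). *Rarg* was 1.44-fold higher in distal cells at E14.5 (69.0 against 47.8 CPM). At E13.5 it was 2.54-fold higher in proximal cells, as in the whole limb (118 against 46.7 CPM, intervals apart). Its intervals overlapped at E12.5 and in both segments of E16.5.

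*Cyp26b1* was higher in proximal cells 1.78-fold at E13.5 (35.8 against 20.1 CPM), 2.95-fold in the proximal segment (24.6 against 8.34) and 1.497-fold in the distal segment (83.0 against 55.4). At E14.5 it was higher in distal cells, as in the whole limb (24.0 against 9.53 CPM).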

How the results depend on the processing

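Under the alternatives run, *Aldh1a2* stayed higher in sorted E11.5 cells, and *Crabp2* higher and *Cyp26b1* lower in proximal whole-limb cells; where a count or call moved, the cause was not tested. In sorted against whole-limb cells the 8023 calls became 4832 with DESeq2, 4791 with no filter on low counts and 4105 with proximal cells alone. The 7 members called became 4 with library totals, 4 with no filter (adjusted p 0.061 for *Crabp1*, 0.075 for *Crabp2*, 0.058 for *Rarg*) and 4 with proximal cells alone. *Rarb*, at −0.04 and not called, took the values 0.14 with library totals, 0.095 with proximal cells, 0.030 with at least 5000 UMIs per cell and 0.0071 with at most 5% mitochondrial UMIs. Without either whole-limb library, a value with no test, *Aldh1a2* ranged from 2.84 to 3.19 and *Cyp26b1* from −0.77 to −0.53. In proximal against distal cells the 6281 calls became 2547 with DESeq2, 3676 with positions set by *Hoxa13* and *Meis2* alone and 4085 with thinned cells, and *Rara* was not called in any of these (adjusted p 0.39, 0.32 and 0.055). *Aldh1a2* took −0.046 with *Hoxa13* and *Meis2* alone, and from −0.41 to 0.62 with 1 library. The replicate block, here the library, gave 6281 calls and 6 members, against 4397 calls and 5 members without the block. No paired analysis was possible because, for sorted against whole-limb cells, stages and segments, each of these groups but the whole limb was 1 library, so that the groups shared 1 replicate number at most. *Cyp26b1* was in more cells with *Aldh1a2* in 1 of 8 libraries, in 2 when cells were not thinned and in 4 without high doublet scores. The log2 ratio of *Aldh1a2* in proximal pericyte-like cells over the rest, 2.14, was −0.65 at resolution 0.5 and −0.66 at resolution 2. The 6 members past 2-fold from E11.5 to E16.5, *Aldh1a1* among them, became 7 over all filtered cells. The 2 between segments stayed 2 in each alternative.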

Other observations

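Among the other listed genes some moved past 2-fold across the sorted libraries, at 10 CPM or more in the higher one and without replicates. *Rbp4*, the secreted retinol carrier of blood, went from 5.14 CPM at E11.5 to 68.2 in the proximal segment at E16.5, and *Fabp5* from 137 to 551 CPM. *Stra6*, the retinol uptake receptor gene, went from 18.1 to 0.93 CPM and to 0.41 CPM in the distal segment. *Nr2f1* went from 22.3 to 9.06 CPM and *Nr2f2*, a related nuclear receptor gene, from 147 to 38.8 CPM. *Meis2* went from 85.0 to 36.3 CPM and was at 8.24 CPM distally.

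In the later sorted libraries *Aldh1a2* and *Aldh1a3* were compared between proximal and distal cells, called as in the whole limb and with no test. *Aldh1a2* was at 38.7 CPM in distal and 5.91 in proximal cells at E13.5, at 36.2 and 4.72 at E14.5 and at 11.6 and 3.45 in the distal segment, with intervals apart in each. Its intervals overlapped at E12.5 (35.0 and 27.5 CPM) and in the proximal segment (10.01 and 8.85 CPM). *Aldh1a3* was at 38.0 CPM in distal and 9.40 in proximal cells at E12.5 and at 70.9 and 7.64 at E13.5, at 42.6 and 20.8 in the proximal segment and at 22.2 and 5.42 in the distal segment, with E14.5 the one exception (5.81 and 11.8). For *Aldh1a1* the intervals overlapped in all 5 libraries, and it was at 0.84 CPM in distal and 2.46 in proximal cells of the distal segment. These libraries had 53 to 2128 distal and 220 to 1273 proximal cells, and stage cannot be told apart from library.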
